A study of Mus musculus with 154 samples.

Results

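Strain (B6.A8 X B6.A17)F1 is a chromosome substitution strain (CSS) that carries 1 copy of chromosome 8 and 1 copy of chromosome 17 from the inbred strain A/J, while every other chromosome is from C57BL/6J (B6). It is named below as the double strain, with the sire's line first as in the sample labels. Its 5 mice were compared with 8 mice of (B6 X B6.A17)F1, the chromosome 17 single strain, 8 mice of (B6.A8 X B6)F1, the chromosome 8 single strain, and 20 B6 mice, which carry no A/J chromosome. These 41 mice belong to a series that also holds 113 mice of 20 other strains, and all 13289 genes of its liver RNA-seq count table were tested. According to the labels, all mice were 5 weeks old and were fasted overnight, and the study's methods give their sex as male. No transgene, drug or diet separates the groups. A substituted chromosome is heterozygous here and carries all A/J alleles of that chromosome, so the comparisons assign a difference to a whole chromosome and see dominant or semi-dominant effects.

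When the alleles of 2 chromosomes act independently on a transcript, the change in mice that carry both is the sum of the changes in mice that carry each one, on the log scale used here. A departure from that sum is a statistical interaction, or epistasis. The liver of a fasted mouse releases glucose by gluconeogenesis, burns fatty acids to ketone bodies, turns amino nitrogen into urea and secretes most plasma proteins. Chromosome 17 of the mouse carries the major histocompatibility complex (MHC) and several complement genes, and chromosome 8 carries Agt, the precursor of the angiotensin peptides, and a cluster of carboxylesterases.

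The comparison asked whether the double strain equals the sum of both single strains. In 1154 of 13289 genes (8.68% of the genes tested) it did not, at a false discovery rate (FDR) under 0.05 in the quasi-likelihood test of edgeR (Benjamini-Hochberg adjusted). The double strain was above the sum in 658 genes (4.95%) and below it in the remaining 3.73%. At an unadjusted p under 0.05 the share was 23.8%. The interaction was a small change in most of them, with a median absolute log2 value of 0.40 among the called genes and a median standard error (SE) of 0.153 over all genes. Above the sum stood 5 of 13 gluconeogenic genes, 6 of 15 glycolytic genes and 5 of 24 genes of amino acid breakdown, and below it 19 of 61 respiratory chain subunits, 12 of 75 ribosomal proteins and 4 of 31 proteasome subunits, where 10, 1 and 0 were above. The number of called genes was 590 without double strain replicate 4 and 650 without replicate 2, and it was 1 with 10 surrogate variables instead of 5. Surrogate variables are factors of unknown origin that are estimated from the counts and added to the model. The study, which also used 5 surrogate variables, lists only a few interactions for this pair of chromosomes. All of them are in genes on the substituted chromosomes, and the study lists 0 in genes on the other chromosomes. Here 1056 of the called genes lie on the other chromosomes. The cause of that difference was not tested.

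The total of counted reads was 7415260, 7592017, 18019831, 11598661 and 20698123 in the 5 double strain mice. It ranged from 11866128 to 19247473 in the chromosome 17 single strain, from 12679770 to 27281291 in the chromosome 8 single strain and from 6752637 to 25630807 in B6. The 10 hepatocyte markers, among them Alb and Apoa1, were all measured, and their summed level was between 86939 and 109029 counts per 1000000 counted reads (CPM) in the double strain. Replicates 1 and 2 of the chromosome 17 single strain had the highest values on the first surrogate variable, at 0.273 and 0.203. The other 39 mice reached 0.166. Without these 2 replicates the interaction was called in 1853 genes. No replicates of a strain agreed within sampling noise, since the lowest chi-square between a pair of libraries was 13.1 per degree of freedom. The highest, 510.9, was between B6 replicates 1 and 12. B6 replicate 12 also had the lowest factor for scaling library sizes, 0.709, and no setting left it out.

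The 2 genes with the lowest interaction p in each direction are shown by the start of their coding sequence, because the genes above and below the sum differed in base composition. Each line gives the first 90 coding bases of the longest coding transcript in GENCODE vM21 (GRCm38), 5′ to 3′ on the sense strand, with G and C in capitals. Bckdha lies at chr7:25629946-25658981 on the minus strand, Ctsa at chr2:164832873-164841032 on the plus strand, Cops2 at chr2:125830304-125859139 on the minus strand and Thoc7 at chr14:13949012-13961852 on the minus strand, and all 4 stretches are exonic coding sequence.
Bckdha: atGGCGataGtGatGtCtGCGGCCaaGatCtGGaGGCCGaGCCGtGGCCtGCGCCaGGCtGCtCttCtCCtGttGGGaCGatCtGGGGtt
Ctsa: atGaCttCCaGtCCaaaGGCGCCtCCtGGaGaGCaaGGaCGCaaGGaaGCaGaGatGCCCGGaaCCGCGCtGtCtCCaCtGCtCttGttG
Cops2: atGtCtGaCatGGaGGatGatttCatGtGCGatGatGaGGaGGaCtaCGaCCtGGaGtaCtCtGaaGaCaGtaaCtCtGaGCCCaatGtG
Thoc7: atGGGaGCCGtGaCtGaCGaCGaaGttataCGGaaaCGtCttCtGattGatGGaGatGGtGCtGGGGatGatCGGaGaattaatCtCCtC
Bckdha and Ctsa, which stood above the sum, hold 56 and 53 G or C bases in these stretches, and Cops2 and Thoc7, which stood below it, hold 43 and 44. Over the whole transcript the GC content was 57.9% in Bckdha, 54.5% in Ctsa, 37.3% in Cops2 and 37.2% in Thoc7.

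Bckdha, a subunit of the mitochondrial enzyme that commits branched-chain amino acids to breakdown, had the lowest interaction p. Its level in the double strain was 160.2, 171.4, 173.8, 201.3 and 188.4 CPM, with a mean of 179.0 ± 16 (SD, n = 5). It was between 153.3 and 209.7 CPM in B6 (median 177.7), between 159.7 and 187.7 in the chromosome 17 single strain (median 177.2) and between 113.5 and 158.5 in the chromosome 8 single strain (median 123.4). The double strain thus overlapped B6 and the chromosome 17 single strain and lay above every chromosome 8 single strain mouse. Additive effects predict 125.3 CPM from the strain means on the log2 scale, and the interaction was 0.47 ± 0.08 (log2, SE; edgeR's quasi-likelihood test, FDR 0.000293). Ctsa, a lysosomal carboxypeptidase that protects other lysosomal enzymes, had the same order. Its level was 95.2, 89.3, 101.5, 93.8 and 81.5 CPM in the double strain and between 56.8 and 83.9 CPM in the chromosome 8 single strain, with 1 mouse of each strain in the overlap. Its interaction was 0.52 ± 0.09 (FDR 0.000293).

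Got2, the mitochondrial aspartate aminotransferase of the malate-aspartate shuttle, is itself on chromosome 8. The 5 double strain mice had 220.6, 224.5, 240.0, 249.6 and 233.1 CPM. B6 had 211.0 to 300.5 CPM (median 255.4), the chromosome 17 single strain 177.9 to 271.3 (median 229.4) and the chromosome 8 single strain 118.3 to 210.5 (median 149.4). All double strain mice were above all chromosome 8 single strain mice and inside the B6 range, and the interaction was 0.59 ± 0.11 (FDR 0.000234). The fitted difference from B6 was -0.16 in the double strain (FDR 0.137) and -0.55 in the chromosome 8 single strain (FDR 1.37e-11).

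Agt, on chromosome 8, differed from B6 in all 3 CSSs, whereas the study describes its level in this double strain as not different from B6. The double strain mice had 372.6, 283.8, 363.2, 420.9 and 290.8 CPM, against 381.5 to 589.8 in B6 (median 480.3), 265.2 to 478.5 in the chromosome 17 single strain (median 363.2) and 184.0 to 319.1 in the chromosome 8 single strain (median 213.9). Of the double strain mice 2 lay within the range of the chromosome 8 single strain, and 4 below every B6 mouse. Against B6, Agt was lower by -0.34 with chromosome 17 (FDR 0.0121), by -0.85 with chromosome 8 (FDR 2.47e-15) and by -0.50 with both (FDR 1.77e-05). Additive effects predict 173.2 CPM from the strain means on the log2 scale, without surrogate variables. The interaction fitted with them was 0.69 ± 0.13 (FDR 0.000533).

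The other genes that led the list above the sum have varied roles. Mavs, the mitochondrial adaptor of RNA-sensing receptors, had an interaction of 0.80 ± 0.15 (FDR 0.00058), with 46.0 to 58.7 CPM in the double strain and 31.1 to 51.1 in the chromosome 8 single strain, so the groups overlapped. U2af2, which recognizes the polypyrimidine tract in splicing, had 0.58 ± 0.11. Tufm, the mitochondrial elongation factor Tu, had 0.57 ± 0.11, and its 5 double strain mice (16 to 20.6 CPM) lay above all chromosome 8 single strain mice (9.74 to 15.5). The glycolytic enzyme Gapdh had 0.57 ± 0.11, and the splicing factor Rbm22 had 0.47 ± 0.09 (FDR 0.000657). None of these genes was called between the double strain and B6 (FDR 0.261 to 0.959).

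Below the sum, Cops2, a subunit of the COP9 signalosome that removes NEDD8 from cullins, had the lowest p. The double strain had 72.2, 73.7, 66.7, 74.7 and 87.2 CPM, B6 had 69.7 to 100 (median 78.3), the chromosome 17 single strain had 72.7 to 120.3 (median 94.2) and the chromosome 8 single strain had 89.0 to 140.7 (median 116.2). Each double strain mouse was below each chromosome 8 single strain mouse. Additive effects predict 132.2 CPM from the strain means, and the interaction fitted with surrogate variables was -0.61 ± 0.11 (FDR 0.000293). Cox6c, a small subunit of cytochrome c oxidase, had 116.5, 125.9, 121.3, 142.7 and 125.5 CPM in the double strain, where additive effects predict 244.4 CPM. Its highest double strain value, 142.7, was just under the lowest of the chromosome 8 single strain, 142.8, and the chromosome 17 single strain reached from 137.1 to 302.7. Replicates 1 and 2 of the chromosome 17 single strain, at 265.0 and 302.7 CPM, raise the expectation. The next highest mouse of that strain had 191.5 CPM. The interaction of Cox6c fitted with surrogate variables was -0.55 ± 0.10 (FDR 0.00058).

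Aadac, an esterase of the hepatic endoplasmic reticulum that hydrolyses arylacetamides and triglycerides, had 348.4, 382.4, 345.4, 445.0 and 368.6 CPM in the double strain. B6 had 251.2 to 534.8 CPM (median 405.5) and the chromosome 8 single strain had 497.7 to 751.8 (median 559.9), which did not overlap the double strain. The interaction was -0.54 ± 0.10 (FDR 0.000803). Cfhr2, a complement factor H-related protein, had -0.62 ± 0.12 (FDR 0.000657), and its counts can be shared with its near copies in the same cluster. Thoc7 of the mRNA export complex had -0.48 ± 0.09, Ergic2 of the intermediate compartment -0.46 ± 0.09, Spryd7 -0.61 ± 0.12 and Vps54, a subunit of the retrograde tethering complex GARP, -0.35 ± 0.07 (FDR 0.00058 to 0.000803). All 8 leading genes of this direction were inside or overlapped the B6 range in the double strain, and none was called against B6 (FDR 0.088 to 0.996).

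**Figure D1:**
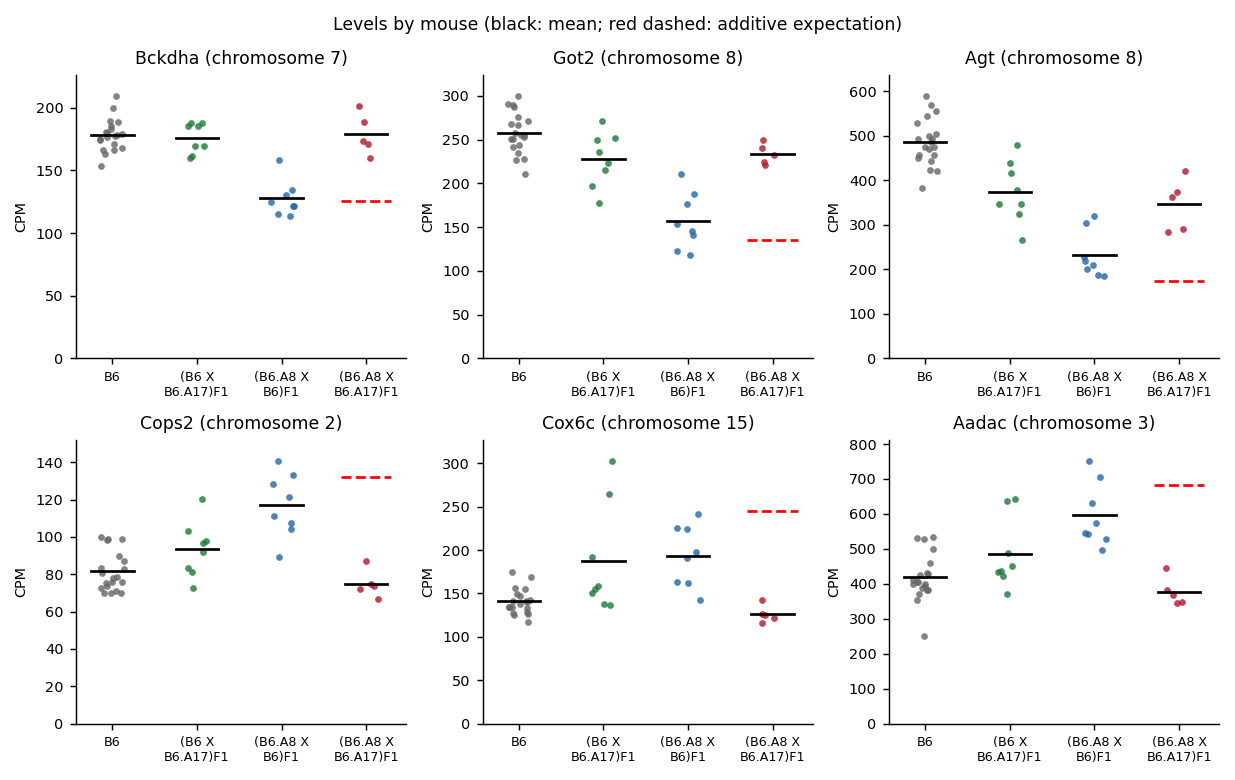
Levels of 6 genes with an interaction in each mouse, in CPM (linear axis from 0), for B6 (n = 20), both single strains (n = 8 each) and the double strain (n = 5); black lines are means and red dashed lines are the additive expectation for the double strain. The double strain mean of Bckdha was 179.0 CPM against an expected 125.3, and that of Cops2 was 74.9 against 132.2, close to B6 at 178.2 and 81.5.

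Across all called genes, the pattern of these examples was frequent. The 658 genes above the sum had median log2 differences from B6 of -0.32 in the chromosome 8 single strain (quartiles -0.43 and -0.23), -0.10 in the chromosome 17 single strain (-0.17 and -0.05) and -0.03 in the double strain (-0.11 and 0.05). The genes below the sum had medians of 0.31 (0.23 and 0.43), 0.11 (0.05 and 0.18) and 0.00 (-0.08 and 0.08). The double strain was therefore near B6 in most of them, and the chromosome 8 single strain was the one that stood away. These comparisons share mice, and a gene that is low in a single strain enters the interaction with the opposite sign, so part of this opposition is arithmetic.

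Genes on the substituted chromosomes were not called more often in the interaction than genes elsewhere. The called share was 6.95% on chromosome 8 (48 genes), 7.94% on chromosome 17 (50 genes) and 8.82% on the other chromosomes (1056 genes). On chromosome 8, Got2 and Agt had the lowest p, followed by Utp4, a ribosome biogenesis protein, at 0.64 ± 0.13 (FDR 0.00134) and Tecr, the last enzyme of the very-long-chain fatty acid elongation cycle, at 0.51 ± 0.11 (FDR 0.00134). Tecr differed from the other leading genes in that neither single strain was called (-0.06, FDR 0.647 and -0.09, FDR 0.31). The double strain had 73.7, 65.9, 81.9, 83.5 and 78.0 CPM, above the chromosome 17 single strain (48.3 to 66.4) except for 1 mouse, and Tecr rose by 0.36 ± 0.07 against B6 (54.6 to 77.7 CPM; FDR 3.59e-05).

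On chromosome 17, Gtf2h5, a small subunit of the TFIIH complex, had an interaction of -0.35 ± 0.07 (FDR 0.00177). It was higher than B6 in both single strains (0.17, FDR 0.00214 and 0.20, FDR 0.000325) and 0.02 from B6 in the double strain (FDR 0.865). Calm2, 1 of the 3 calmodulin genes, showed the same order with -0.34 ± 0.08 (FDR 0.00471). Fam234a and the adaptor protein gene Stap2 were above the sum, by 0.50 ± 0.11 (FDR 0.00257) and 0.45 ± 0.11 (FDR 0.00421).

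The gene lists that follow cover liver pathways, and each count is read against the 8.68% called over all genes and the all-gene median interaction of 0.02. Of 13 gluconeogenic genes measured, 5 stood above the sum, 0 below it and 8 did not pass, with a median interaction of 0.53. Fbp1, fructose-1,6-bisphosphatase, had 0.53 ± 0.11 (FDR 0.00124), the glucose-6-phosphate transporter Slc37a4 0.71 ± 0.17 (FDR 0.0034) and Gpt, alanine aminotransferase, 0.66 ± 0.16 (FDR 0.00411), while Pcx, pyruvate carboxylase, had 0.64 (FDR 0.00873). Pck1 and G6pc, the hormonally regulated enzymes at both ends of the pathway, did not pass (0.33, FDR 0.376 and -0.11, FDR 0.892). In the chromosome 8 single strain 11 of the 13 genes fell against B6 (29.6% of all genes called in either direction), with a list median of -0.54, and in the double strain 3 fell (6.06% called), with a list median of -0.12. Those 3 were Ppargc1a, a coactivator of the fasting response (-0.95, FDR 0.00847), Tat, tyrosine aminotransferase (-0.83, FDR 0.00553), and Pcx (-0.39, FDR 0.0336).

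Of 15 glycolytic genes, 6 stood above the sum and 0 below it, with a median of 0.36. Beside Gapdh these were Eno1 at 0.55 ± 0.13 (FDR 0.00284), Gpi1 at 0.46 ± 0.11 (FDR 0.00304), Pgam1 at 0.36 ± 0.09 (FDR 0.00441), Aldoa at 0.49 (FDR 0.016) and Tpi1 at 0.33 (FDR 0.0177). None of the 15 was called between the double strain and B6 by edgeR's or DESeq2's test, and 2 had an unadjusted p under 0.05. Ldha, lactate dehydrogenase A, had an interaction of 0.47 ± 0.16 that just missed the threshold (FDR 0.0501), with 662.7, 676.7, 694.4, 756.8 and 1060 CPM in the double strain.

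Amino acid breakdown and urea synthesis showed 5 genes above the sum of 24, 0 below it and a median of 0.36. Fah, the last enzyme of tyrosine breakdown, had 0.43 ± 0.09 (FDR 0.0017), Uroc1 of histidine breakdown 0.57 ± 0.14 (FDR 0.00385), and Cps1, the first enzyme of the urea cycle, 0.60 ± 0.16 (FDR 0.00873). Agxt, which detoxifies glyoxylate in peroxisomes, had 197.6, 147.7, 171.1, 199.5 and 167.6 CPM in the double strain, 171.7 to 326.4 in B6 (median 222.4) and 89.6 to 151.3 in the chromosome 8 single strain (median 120.7). One double strain mouse overlapped the chromosome 8 single strain, and the interaction of Agxt was 0.63 ± 0.16 (FDR 0.00873). In this list 5 genes still fell in the double strain against B6, where 2.72% of all genes were called lower. They were Cps1 (-0.36, FDR 0.0352), Arg1 (-0.32, FDR 0.00798), Uroc1 (-0.31, FDR 0.0339), Cth (-0.59, FDR 0.00638) and Aass (-0.54, FDR 0.00637).

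In fat metabolism, of 22 genes of fatty acid oxidation and ketogenesis, 3 stood above the sum (median 0.26), among them Cpt1a, which admits fatty acids to mitochondria (0.62 ± 0.17, FDR 0.0128), and Acadvl (0.32 ± 0.09, FDR 0.021). Of 14 genes of fatty acid synthesis 2 passed, Acly (0.52 ± 0.15, FDR 0.0149) and Acaca (0.43 ± 0.13, FDR 0.0266), and Fasn did not (0.57 ± 0.25, FDR 0.132). Only Ebp passed among 23 genes of cholesterol synthesis (0.21 ± 0.07, FDR 0.0461), a list whose median of 0.03 was that of all genes within 0.01. For apolipoproteins and plasma lipid enzymes the count was 4 above and 1 below of 18, among them Lcat, on chromosome 8, at 0.37 ± 0.08 (FDR 0.00234) and Apoc2 at 0.65 ± 0.15 (FDR 0.00329).

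Acute-phase genes stood above the sum in 6 of 22 (median 0.43, 0 below), 5 of them for secreted plasma proteins and the other Mt1, an intracellular metal-binding metallothionein (1.30, FDR 0.0225). Genes of coagulation and complement stood above it in 10 of 31 (median 0.29, 1 below). Serpina3n, an acute-phase protease inhibitor, had 0.98 ± 0.21 (FDR 0.00198), the inter-alpha-trypsin inhibitor chains Itih4 and Itih3 had 0.86 ± 0.22 (FDR 0.00802) and 0.67 ± 0.18 (FDR 0.00866), and Lbp, the lipopolysaccharide-binding protein, had 0.49 ± 0.14 (FDR 0.0134). Serpinf2, the plasmin inhibitor, had 0.60 ± 0.13 (FDR 0.00198). The exception was the mannose-binding lectin Mbl1, at -0.63 ± 0.14 (FDR 0.00271), which rose in both single strains (0.32, FDR 0.0172 and 0.35, FDR 0.000991) and was 0.04 from B6 in the double strain (FDR 0.85).

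The mitochondrial and protein-turnover lists went mostly the other way. Of 61 respiratory chain subunits 19 stood below the sum and 10 above it. Those below included Cox6c, Ndufa4 (-0.52 ± 0.10, FDR 0.000922), Atp5j (-0.38 ± 0.08, FDR 0.0016) and Ndufs4 (-0.46 ± 0.10, FDR 0.00198), and those above included the catalytic ATP synthase subunit gene Atp5a1 (0.39, FDR 0.00271), the complex I flavoprotein gene Ndufv1 (0.32, FDR 0.00339) and Uqcrc1 (0.33, FDR 0.00645). The median transcript GC content was 53.6% in the 10 and 46.9% in the 19. Of 75 cytoplasmic ribosomal protein genes 12 stood below and 1 above, Rpl22 with -0.39 ± 0.10 (FDR 0.0068) and Rps28, on chromosome 17, with 0.41 ± 0.11 (FDR 0.0128). Without surrogate variables 53 ribosomal protein genes were below, where 24.9% of all genes were called in either direction. With genes of low counts removed 1 was below and 2 were above, where 5.6% of all genes were called. The count of this list, like that of all genes, thus rested on the settings. Of 31 proteasome subunits 4 stood below and 0 above, with Psma3 at -0.43 ± 0.09 (FDR 0.00166).

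**Figure D2:**
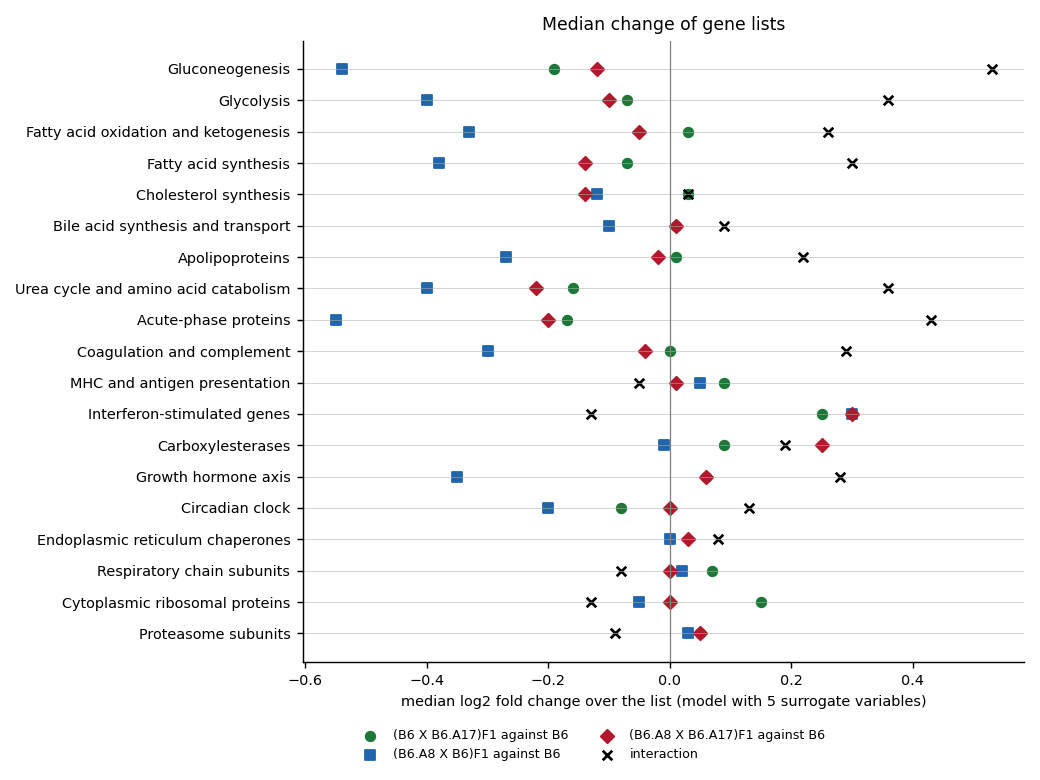
Median log2 fold change over the measured genes of selected pathway lists, in the 3 CSSs against B6 and for the interaction, from the model with 5 surrogate variables. The major urinary protein list, with an interaction median of -1.12, is among those not shown. The gluconeogenesis list had medians of -0.54 in the chromosome 8 single strain, -0.12 in the double strain and 0.53 for the interaction, while ribosomal proteins had an interaction median of -0.13.

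Markers of cell types moved with these lists in part. Of the 10 hepatocyte markers 3 stood above the sum and 0 below it, all 3 of which (Ass1, Cps1 and Fah) are also in the amino acid list. In the chromosome 8 single strain 8 of the markers fell against B6, where 16.7% of all genes were called lower. Their summed level was 52337 to 105991 CPM in the chromosome 8 single strain, 86939 to 109029 in the double strain, 88179 to 139255 in the chromosome 17 single strain and 99481 to 158403 in B6. Of the 12 Kupffer cell and macrophage markers 0 passed in the interaction by edgeR's test, as by DESeq2's, 3 had an unadjusted p under 0.05, and 11 had negative values (median -0.19). Without surrogate variables 9 of the 12 were below the sum (median -0.57), where 24.9% of all genes were called in either direction. Without chromosome 17 single strain replicates 1 and 2, 3 of the markers were below, where 13.9% of all genes were called. Their summed level was 422.1 to 509.1 CPM in the double strain and 429.7 to 886.8 in the chromosome 8 single strain. Of the 10 stellate cell and fibroblast markers 3 stood above the sum, the collagen genes Col1a1 (1.31 ± 0.37, FDR 0.0166), Col1a2 (0.70 ± 0.19, FDR 0.0119) and Col3a1 (0.80 ± 0.25, FDR 0.0282). The other 7 had negative values that did not pass, the list median was -0.05, and 0 of the 10 were called with the 4 strains alone and 5 surrogate variables. In whole liver, fewer cells of a type and less RNA per cell cannot be told apart, and the part of cell composition in the lists was not tested.

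Base composition moved with the interaction throughout the genome. The median transcript GC content was 53.0% in genes above the sum, 41.5% in genes below it and 48.8% in all genes. Among the 10% of genes with the lowest GC content 200 were below the sum and 3 above it, and among the 10% with the highest 3 were below and 96 above. In each mouse a slope was fitted of log2 CPM, relative to the B6 mean, on transcript GC content. The slope per 10 points of GC was between -0.26 and -0.112 in the 8 mice of the chromosome 8 single strain, between -0.112 and 0.033 in the chromosome 17 single strain, between -0.067 and 0.05 in the double strain and between -0.146 and 0.087 in B6. All chromosome 8 single strain mice were thus at or below the other 2 CSSs, and their mean of -0.194 ± 0.045 (SD, n = 8) differed from that of B6, 0.00 ± 0.062 (n = 20; two-sided exact permutation test, p = 1.93e-06, adjusted over 4 comparisons 7.72e-06). The chromosome 17 single strain mean of -0.062 ± 0.044 (SD, n = 8) also differed from that of B6 (exact permutation p = 0.0198, adjusted 0.0264). The double strain mean was 0.003 ± 0.043 (n = 5), which was not distinguished from B6 (exact permutation p = 0.966, adjusted 0.966). It was 0.197 above the chromosome 8 single strain (exact permutation p = 0.00155, adjusted 0.0031). In the other 3 double strains with an A/J chromosome 8 and in this one, 19 mice in all, slopes lay between -0.094 and 0.11, and 9 mice outside the chromosome 8 single strain had a slope at or below its highest.

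**Figure D3:**
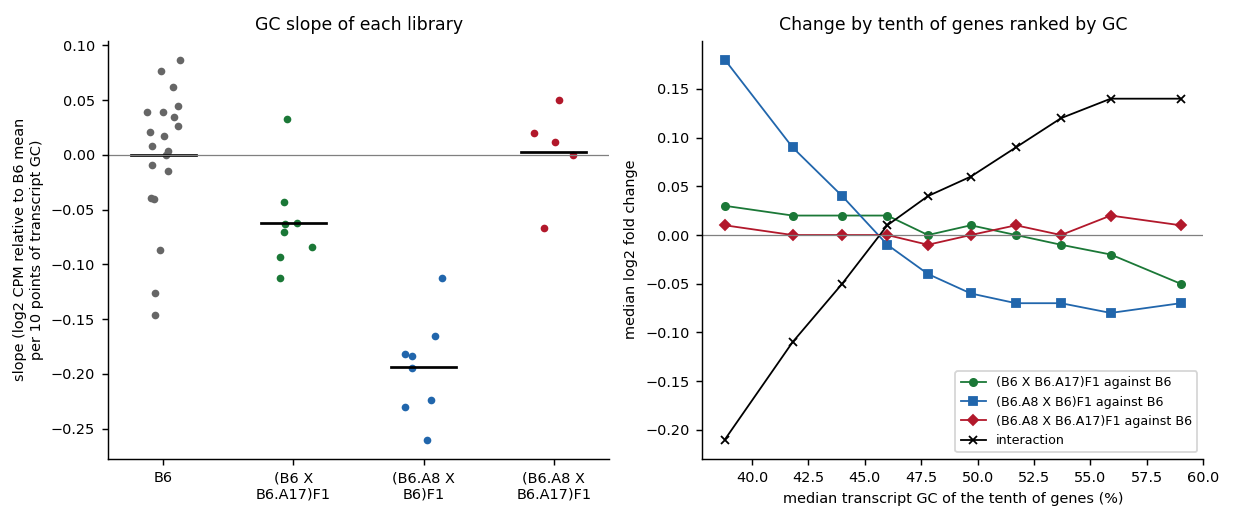
Left, the slope of log2 CPM relative to the B6 mean per 10 points of transcript GC content, 1 point per mouse with the strain mean as a black line; right, median log2 fold change in 10 equal groups of genes ranked by GC content. The chromosome 8 single strain mice lie between -0.26 and -0.112, and the median interaction goes from -0.21 in the group lowest in GC to 0.14 in the highest.

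When a curve on transcript GC content was fitted in each library and removed, the interaction was called in 139 genes, 55 above the sum and 84 below it, where 57.0% had been above before. Of the 1154 genes 123 remained. They included all 8 leading genes above the sum, from Rbm22 (0.48, FDR 0.00394) to Got2 (0.33, FDR 0.0491), and 5 of the 8 below it, among them Cox6c (-0.52, FDR 0.0026), Spryd7 (-0.44, FDR 0.0227) and Cops2 (-0.30, FDR 0.0227). Agt missed the threshold there (0.45, FDR 0.0539), as did Thoc7, Cfhr2 and Vps54 (FDR 0.217, 0.0523 and 0.181). Over all genes 1.05% were called with this curve. Of the lists, 1 of 13 gluconeogenic genes (Fbp1, 0.38, FDR 0.0426) and 1 of 15 glycolytic genes (Gapdh, 0.34, FDR 0.047) passed. Of 24 genes of amino acid breakdown 0 passed, and of 61 respiratory chain subunits 11, all below the sum. With curves on both GC content and transcript length, 3 respiratory chain subunits were above and 13 below. Of 22 acute-phase genes 1 was above with the GC curve, and of 31 coagulation and complement genes 0 were above and 1 below. The median of the gluconeogenesis list was 0.29. The curve removes GC-linked differences between libraries whatever their origin, and that origin was not tested.

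**Figure D4:**
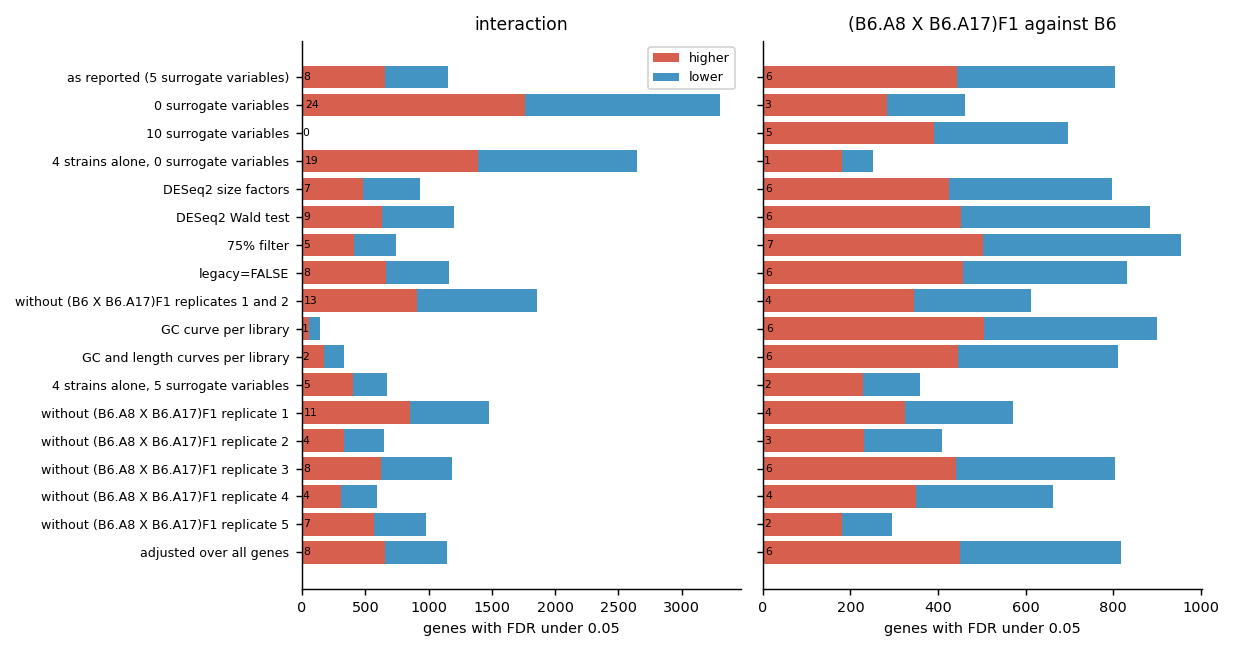
Number of genes with FDR under 0.05 for the interaction (left) and for the double strain against B6 (right), split into higher and lower, under each way of processing; 75% filter needs 15 or more counts in 75% of mice, and legacy=FALSE is another form of edgeR's test. The interaction count goes from 1 with 10 surrogate variables to 3303 with none, while the count for the double strain against B6 goes from 252 to 954.

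Against B6, the double strain differed in 6.06% of the genes, with 444 genes (3.34%) higher and 2.72% of genes lower. At an unadjusted p under 0.05 the share was 21.4%. The share was 15.6% on chromosome 8 (108 genes), 15.2% on chromosome 17 (96 genes) and 5.02% on the other chromosomes (601 genes). Complement, glyoxalase, MHC and defensin genes on the substituted chromosomes were among those with the lowest p. Without double strain replicate 5 the count was 295 and without replicate 2 it was 410.

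C4a, a complement component gene in the MHC region of chromosome 17, had the lowest p. It was at 26.2, 27.2, 22, 23 and 32.5 CPM in the double strain, 12.8 to 24.6 in the chromosome 17 single strain (median 17.5), 2.72 to 6.09 in the chromosome 8 single strain (median 3.66) and 1.48 to 4.43 in B6 (median 2.88). The double strain lay above all mice without an A/J chromosome 17, with a log2 difference from B6 of 3.16 ± 0.16 (edgeR's quasi-likelihood test, FDR 2.75e-39). C4a is a near copy of C4b, so the split of reads between them is uncertain. Glo1, which detoxifies methylglyoxal, had 386.8, 552.9, 373.1, 502.6 and 450.4 CPM, against 150.4 to 334.2 in B6 and 398.5 to 705.2 in the chromosome 17 single strain. It rose by 1.15 ± 0.09 against B6 (FDR 2.45e-23), and it was also higher in the chromosome 8 single strain (0.39, FDR 0.000181). Its interaction of -0.29 ± 0.14 did not pass (FDR 0.173).

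The lipid transporter gene Abca3 on chromosome 17 rose by 1.11 ± 0.09 (FDR 8.85e-21), with 50.5 to 76.4 CPM in the double strain and 20.8 to 40.8 in B6. Of the 10 genes lowest in p against B6 with an average log2 CPM of 2 or more, 5 in each direction, it was the only one with an interaction past the threshold (0.45 ± 0.14, FDR 0.0351), and its adjusted p was 0.295 with the GC curve. On chromosome 8, Arhgef10, an exchange factor for small GTPases, had 9.28, 9.31, 9.49, 7.13 and 7.81 CPM in the double strain and 2.22 to 4.59 in B6, a rise of 1.25 ± 0.12 (FDR 1.86e-16). The chromosome 8 single strain was at 8.14 to 10.1 CPM and the chromosome 17 single strain at 2.73 to 4.09, so mice with and without an A/J chromosome 8 did not overlap. Defb1, a beta-defensin gene on chromosome 8, had 2.73, 1.99, 3.01, 4.78 and 5.16 CPM in the double strain, 4.36 to 6.76 in the chromosome 8 single strain and 4.07 to 17.6 in B6, and fell by 1.41 on the log2 scale (SE 0.20, FDR 2.07e-08).

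Among the 5 such genes lowest in p that fell, Defb1 is on chromosome 8 and the other 4 are on chromosome 17. Plcl2, a phospholipase C-like protein, fell by 0.68 (SE 0.08, FDR 3.77e-12), the class Ib gene H2-T22 by 0.61 (SE 0.09, FDR 4.69e-09) and Tedc2, a tubulin-complex protein, by 0.87 (SE 0.13, FDR 3.48e-08). In H2-T22 the single strains went opposite ways, -0.58 with chromosome 17 (FDR 1.94e-11) and 0.32 with chromosome 8 (FDR 0.00027). The double strain had 16.2, 18, 13.4, 17.7 and 15.8 CPM, below all B6 mice (22.7 to 34.6), and its interaction was -0.36 ± 0.12 (FDR 0.0543).

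Genes that changed in both single strains in 1 direction were examined for a small interaction. A gene was counted when both single strains were called with the same sign and the 95% confidence interval of the interaction lay within 0.3 of 0 on the log2 scale. That held for 5 genes, Zkscan3, H2-Q10, Rac1, March2 and Xpot, of which Xpot falls outside the naming rule. The median SE of 0.153 is too wide for such an interval, and for Rac1, March2 and Xpot the limit of 0.3 is about as large as the sum of both single effects, so the rule does not show that these 3 were additive. Zkscan3, a zinc finger transcription factor of chromosome 13 that represses autophagy genes, had 104.0, 141.6, 121.8, 104.6 and 123.2 CPM in the double strain. It had 66.9 to 105.5 in the chromosome 17 single strain (median 73.6), 83.7 to 116.5 in the chromosome 8 single strain (median 94.1) and 38.8 to 77.3 in B6 (median 59.2). Each double strain mouse was above each B6 mouse, with overlap at the upper end of both single strains. The log2 differences from B6 were 0.42, 0.46 and 0.90, and the interaction was 0.02 ± 0.12 (FDR 0.962). The double strain was also higher than the chromosome 17 single strain (0.48 ± 0.09, FDR 0.00242) and than the chromosome 8 single strain (0.43 ± 0.09, FDR 0.00058).

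H2-Q10, a secreted class Ib MHC molecule made by the liver, went down by the same rule. The double strain had 521.1, 536.0, 547.2, 527.3 and 530 CPM, where additive effects predict 530.2, and every one of these values was below the B6 range of 677.9 to 1117. The chromosome 17 single strain was at 511.9 to 872.8 CPM (median 660.8) and the chromosome 8 single strain at 585.2 to 805.8 (median 690.4). Against B6 the log2 differences were -0.47 (FDR 1.37e-11), -0.24 (FDR 0.00125) and -0.64 ± 0.07 (FDR 1.86e-14), and the interaction was 0.06 ± 0.10 (FDR 0.747). Sequence variation among the related H2-Q genes can move reads between them, so its level is less certain than that of a single-copy gene. Rac1, a small GTPase, and March2, a ubiquitin ligase of membrane proteins, had smaller changes of -0.13 (FDR 0.0415) and 0.25 (FDR 0.000366) in the double strain. The single effects were -0.13 and -0.18 in Rac1, with an interaction of 0.17, and 0.19 and 0.18 in March2, with an interaction of -0.12.

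**Figure D5:**
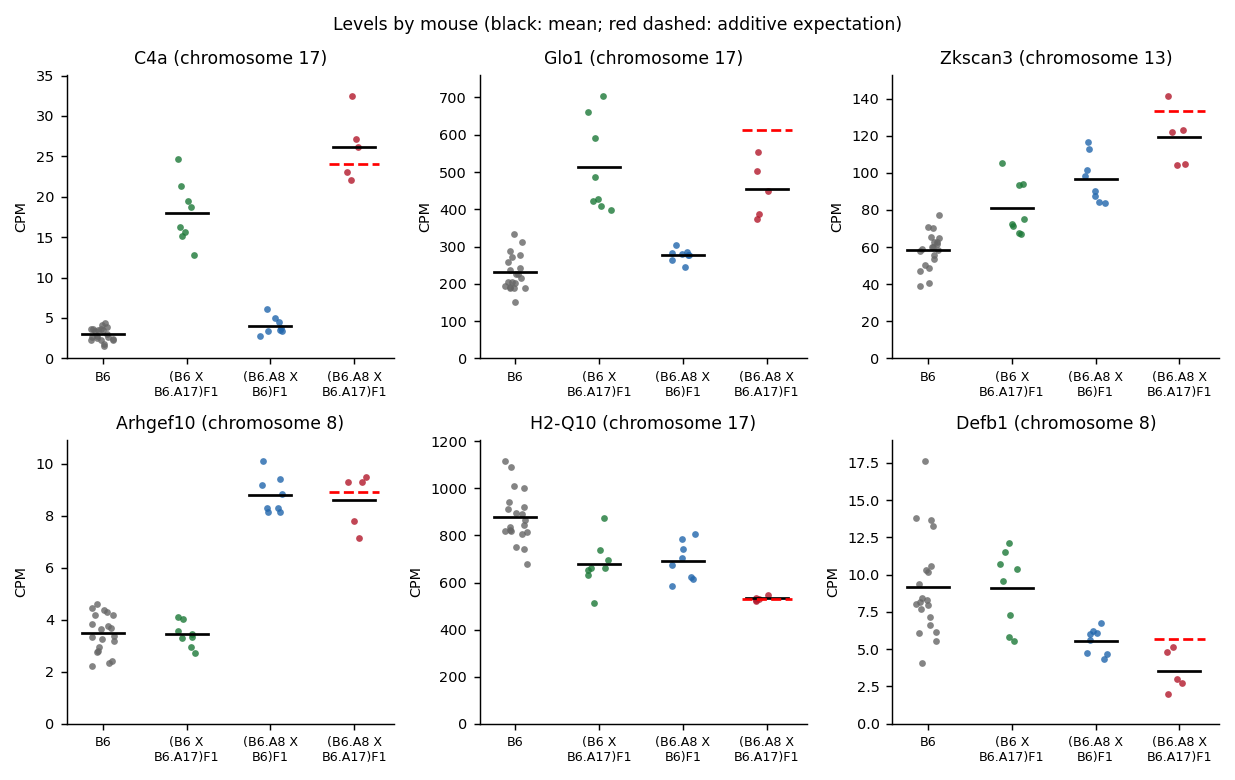
Levels of 6 genes that differed between the double strain and B6 in each mouse, in CPM (linear axis from 0), by strain; black lines are means and red dashed lines are the additive expectation for the double strain. C4a had a mean of 26.2 CPM in the double strain and 2.99 in B6, and H2-Q10 had 532.3 in the double strain against an expected 530.2.

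Among gene families, the MHC and antigen presentation list had 5 of 28 genes higher and 5 lower in the double strain against B6 (6.06% of all genes called), and 4 higher and 5 lower in the chromosome 17 single strain (3.67%). H2-T10 (3.43 and 3.22 on the log2 scale) and H2-Q2 (2.46 and 2.62) had the largest rises in both, and H2-T23 (-0.40 in both) and H2-K1 (-0.35 and -0.32) fell in both. As for H2-Q10, reads can move between related genes, so the values of H2-T10, H2-T22 and H2-Q2 are less certain. Such a shift of reads was not tested. The only interaction call of the list was H2-Aa, a class II chain, at -1.0 ± 0.31 (FDR 0.0258), which rose with chromosome 17 alone (0.65, FDR 0.00379) and was 0.08 from B6 in the double strain (FDR 0.843). Of 28 interferon-stimulated genes 5 rose and 0 fell in the double strain (3.34% of all genes called higher), Irf7 (0.49, FDR 0.00461), Ifi27 (0.56, FDR 0.00461), Bst2 (0.31, FDR 0.0375), Igtp (0.48, FDR 0.0452) and Apol9b (0.43, FDR 0.0452), and 0 had an interaction (1 at an unadjusted p under 0.05, and 0 by DESeq2). Without surrogate variables none of the 5 was called. Of 14 carboxylesterases 2 rose, against 3.34% of all genes, Ces1b (0.89, FDR 8.02e-11) and Ces2a (0.92, FDR 0.00257), both on chromosome 8.

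Major urinary protein genes (Mup), which encode pheromone carriers secreted by the liver under growth hormone and androgen, rose in 11 of 18 in the double strain (3.34% of all genes) and in 16 of 18 in the chromosome 8 single strain (12.9% of all genes), with list medians of 1.25 and 1.69. The interaction was below the sum in 5 of 18 (median -1.12), for example Mup3 at -0.92 ± 0.27 (FDR 0.0216) and Mup6 at -1.41 ± 0.44 (FDR 0.0282). These genes are near copies that share reads, so single members are uncertain. Their summed level was 7878, 9726, 7371, 8803 and 13781 CPM in the double strain, which overlapped B6 (2468 to 12373, median 7951) and, in 1 mouse, the chromosome 8 single strain (11869 to 16934, median 14133). In the chromosome 17 single strain the sum was 6405 to 21732 CPM (median 9248). There 2 of 18 genes rose, against 1.71% of all genes, and the list median was 0.67. Without surrogate variables 3 of the 18 were called higher in the double strain, and with the GC curve 13 were. Interaction calls went from 5 to 0 with the GC curve, with 10 surrogate variables and with the 4 strains alone and 5 surrogate variables. They were 1 with the 75% filter and 9 without surrogate variables.

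The chromosome 17 single strain differed from B6 in 488 genes (3.67%), with 1.71% higher and 1.96% lower, and the chromosome 8 single strain in 3939 (29.6%), with 12.9% higher and 16.7% lower. Adding A/J chromosome 17 to mice with A/J chromosome 8 changed 1339 genes (10.1%; 5.9% higher and 4.18% lower), with 17.3% called on chromosome 17 and 9.78% on the chromosomes other than 8 and 17. Adding A/J chromosome 8 to mice with A/J chromosome 17 changed 49 genes (0.369%; 0.233% higher and 0.135% lower), 35 of them on chromosome 8, 14 elsewhere and 0 on chromosome 17. The median SE was 0.122 and 0.123 in these comparisons. At an unadjusted p under 0.05 the counts were 3194 (24%) and 1287 (9.68%), and without surrogate variables the FDR counts were 2861 and 1169. Besides Zkscan3, Tecr, Arhgef10 and Defb1, the genes named here among the 49 were Ces1b (0.99 ± 0.14, FDR 8.89e-09), Ces2a (0.92 ± 0.29, FDR 0.0385) and Cyp2c68 (-0.80 ± 0.18, FDR 0.0211), the latter from a family of near copies.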

How the data were processed

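The study's methods state that stranded total RNA libraries of liver were sequenced in single-end reads, that reads were aligned with TopHat2 to mm10 and the unaligned ones to an individualized A/J genome, and that HTSeq counted reads per gene. The labels' processing notes name the same tools. The deposited values are raw counts of 13289 genes, not normalized, filtered by the authors for low counts. The study's methods name a filter of 15 counts in 75% of samples, which 11852 of these genes meet, and that filter is the 75% filter among the alternatives. The study found the share of mapped reads not significantly different between B6 and any CSS, both genome-wide and on the substituted chromosome. In single genes, reads with A/J alleles may still map less well, which was not tested here. Which flow cell held a library is not given in the sources used here.

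Counts were scaled by TMM and tested with edgeR's quasi-likelihood test (edgeR 4.0.16, legacy=TRUE, R 4.3.3) in all mice of the series, with 8 main effects, 15 interactions and 5 surrogate variables (sva 3.50.0). Log2 fold changes come from this model. CPM values are TMM-scaled and hold no surrogate variables. Additive expectations in CPM come from strain means of log2 CPM, also without surrogate variables, so they need not match the fitted effects and interaction. P-values were adjusted by Benjamini-Hochberg within genes on the substituted chromosomes of a contrast and within all others, with a threshold of 0.05. Mice of a strain are separate animals. Gene positions and longest-transcript GC content came from GENCODE vM21 for 13242 genes. GC slopes and curves used 7760 genes with a mean log2 CPM over 3 (prior count 2).

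Named genes, averaging 2 or more on the log2 CPM scale, were the 8 with the lowest interaction p in each direction, 4 on each substituted chromosome, the 5 with the lowest p in each direction against B6, 4 near-additive genes, Agt, Agxt, Zkscan3, Ldha and Glo1, and up to 4 members of each list by interaction p. A few genes that the rule names are not reported here. Other list members called in a comparison were named after their values were seen. The strains, lists and rules were chosen with earlier results of these data known. DESeq2 (1.42.0) was an alternative.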

Additional observations from a re-analysis of the deposited data

Results flagged for a closer look

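In 1154 genes (8.68%) the effect of A/J chromosome 17 differed between mice with a B6 and with an A/J chromosome 8, by edgeR's test of the interaction (Benjamini-Hochberg FDR). That count depended on the processing. It was 1 with 10 surrogate variables, 139 with the GC curve and 3303 without surrogate variables.

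Among 37 named genes in the 3 CSSs, 111 groups of 5 to 8 mice were examined for a single mouse far from the rest, and 8 held one, where chance gives about 1 in 20. In the chromosome 8 single strain, replicate 1 was the highest in Bckdha at 158.5 CPM (next 134.4) and in Ctsa at 83.9 (next 65.8). In the chromosome 17 single strain, replicate 5 was the highest in U2af2 at 28.1 CPM (next 23.1), and replicate 2 was the highest in Vps54 at 79.4 (next 68.2) and in Stap2 at 24.4 (next 20.9). In the double strain, replicate 5 was the lowest in Vps54 at 56.3 CPM (next 60.2) and the highest in Ldha at 1060 (next 756.8), and replicate 4 was the highest in Stap2 at 25.5 (next 21.6).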

How the results depend on the processing

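Counts of called genes are given as percent of the 13289 genes. The chromosome 8 single strain against B6 kept its 29.6% within 1.5 times in every setting except 10 surrogate variables (9.2%) and the GC curve (18.4%). The other shares, in the order interaction, double strain against B6, chromosome 17 single strain against B6, double against chromosome 8 single and double against chromosome 17 single, were 8.68%, 6.06%, 3.67%, 10.1% and 0.369%. Without surrogate variables they were 24.9%, 3.48%, 13%, 21.5% and 8.8%, and with the 4 strains fitted alone without surrogate variables 19.9%, 1.9%, 8.05%, 15.7% and 3.54%. With 10 surrogate variables the interaction was called in 0.00753% (1 gene, the ribosomal protein gene Rps28), the chromosome 17 single strain in 0.948% and the double against the chromosome 8 single strain in 4.73%. With the 4 strains alone and 5 surrogate variables, the interaction was called in 5.05%, the double against B6 in 2.69% and against the chromosome 17 single strain in 0.241%. With the 75% filter the interaction had 5.6% and the chromosome 17 single strain 1.3%. With the GC curve the interaction had 1.05% and the double against the chromosome 8 single strain 1.57%, and with GC and length curves 2.5% and 2.48%. With the GC curve the chromosome 17 single strain had 351 of 627 genes higher, against 227 of 488. Without chromosome 17 single strain replicates 1 and 2 it had 1.82%, the interaction 13.9% and the double against the chromosome 8 single strain 15.2%. The cause of these moves was not tested, beyond the fewer mice or genes that some settings use.

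Leaving out 1 double strain mouse gave 4.44% (without replicate 4) to 11.1% for the interaction, with 4.89% without replicate 2. It gave 2.22% (without replicate 5) to 6.05% for the double against B6, with 3.09% without replicate 2, and 2.43% (without replicate 4) to 5.0% for chromosome 17. For chromosome 8 it gave 26% to 34.0%, for the double against the chromosome 8 single strain 5.76% (without replicate 2) to 10.6%, and against the chromosome 17 single strain 0.218% (without replicate 3) to 0.339%, with 0.226% without replicate 4. Of the interactions of the named genes, 24 lost significance without replicate 4, 14 without replicate 2 and 1 to 5 without one of the others, with Ebp, Atf3, Abca3 and Igf1 lost most often. DESeq2's size factors and Wald test, legacy=FALSE and adjustment over all genes kept each count within 1.5 times. In all 16 settings apart from 10 surrogate variables, 63 genes were called in the interaction, 30 above and 33 below the sum, and no interaction called in either setting changed sign among the named genes.

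No paired analysis was possible because replicate numbers were given in accession order and pair no mice. The interaction rests on only 5 double strain mice, and its SEs use a spread shared by all strains of the series. The settings with the GC curves, with the 4 strains alone and 5 surrogate variables, and without chromosome 17 single strain replicates 1 and 2 were chosen after seeing the data.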

Other observations

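Other lists are read here against the 8.68% of all genes called in the interaction. In bile acid synthesis and transport, 2 of 16 genes stood above the sum, the bile acid ligase gene Slc27a5 (0.43 ± 0.11, FDR 0.00756) and the sodium-dependent uptake transporter gene Slc10a1 (0.53 ± 0.15, FDR 0.0144), and 1 stood below it, the organic anion transporter gene Slco1a1 (-1.24 ± 0.31, FDR 0.0058), FDR values being those of edgeR. In the growth hormone axis, Igfbp4 stood above the sum (0.39 ± 0.10, FDR 0.00704) and Igf1 below it (-0.46 ± 0.15, FDR 0.0347), of 18 genes. Of 19 circadian clock genes only Clock passed (-0.33 ± 0.10, FDR 0.0276), and of 28 cytochrome P450 genes Cyp2d26 (0.38 ± 0.10, FDR 0.0061) and Cyp2d22 (0.37 ± 0.11, FDR 0.0271) did.

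Among sex-biased liver enzymes, 5 of 20 rose and 3 fell in the double strain against B6, where 6.06% of all genes were called. Hsd3b5 (1.60, FDR 0.017), Elovl3 (1.28, FDR 0.0403) and Cyp7b1 (1.22, FDR 0.0325), which are higher in adult male liver, rose, and Sult1e1 (-2.0, FDR 0.0366) was among those that fell. Without surrogate variables 0 rose and 1 fell. Of 22 endoplasmic reticulum chaperone genes, 15 targets of the stress factor ATF4 and 21 cell cycle genes, 0 passed in the interaction in each list by edgeR's test (3, 5 and 3 at an unadjusted p under 0.05), with medians of 0.08, 0.37 and 0.04.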
